A study of Homo sapiens with 26 samples.

Results

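Glucocorticoid receptor (GR) binding was compared between A549 cells given interleukin-1β (IL1B) together with budesonide and cells given budesonide alone, in both cases with NF-κB blocked by the adenovirus Ad-IκBαΔN. The comparison covered all 10740 of the 10740 regions of 400 bp that the authors tabulated, each with 1 value per group, and rested on 4 of the 26 libraries of the series. A region's difference is its deposited GR value with IL1B plus budesonide minus that with budesonide alone. No region was left out here by that difference, and the sources used here do not give how the authors chose the 10740. Most regions named below are the highest and lowest of their list by it.

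A549 is an established line of human lung carcinoma cells with features of alveolar epithelium. I+B cells were infected with Ad-IκBαΔN and treated for 1 h with 1 ng/ml IL1B and 300 nM budesonide. Bud cells were infected with the same virus and treated for 1 h with 300 nM budesonide. The same pair in cells carrying a virus for green fluorescent protein (Ad-GFP) served as the comparison, and untreated cells (NS) gave the level without hormone. All cells had been kept overnight without serum. GR was recovered by chromatin immunoprecipitation and sequencing (ChIP-seq), with 2 libraries per group from 2 independent experiments. The table combines the 2 libraries of a group into 1 value, so there is no replicate spread, no test and no p-value for any difference below, and values are given as descriptions. The inhibitor was delivered by virus, and the sources used here do not give the share of cells that took it up. A change in some cells and a smaller change in all cells cannot be told apart, and GR binding does not show whether the cells were A549.

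NF-κB is a family of transcription factors held in the cytoplasm by IκB proteins. IL1B acts through its receptor to activate a kinase that marks IκBα for destruction, after which NF-κB enters the nucleus and switches on cytokines, chemokines and its own inhibitors. IκBαΔN is a truncated IκBα that lacks the end of the protein on which that mark is placed, so it keeps NF-κB inactive while the other branches of IL1B signalling, such as the mitogen-activated protein kinases, can still act. Budesonide is a synthetic glucocorticoid used in inhaled form for asthma. It binds GR, which moves to the nucleus and binds DNA, classically as a dimer at an element made of inverted half-sites.

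The sequences that the results below turn on are shown first. The GR element was searched on hg38 as the half-site AGAACA and its inverted copy TGTTCT with 3 bases between them, counting mismatches in the 12 fixed bases. Both strands read alike for such a repeat. At most 1 mismatch was found in 3.43% of all regions and in 0.205% of windows of the same length 5 kb away. The κB motif, searched on both strands, was found in 21.3% of regions and 3.90% of the distant windows. A match is a description of the letters and not a bound site. The first 2 sequences hold the element with 1 mismatch (capitals) and come from regions where GR was higher with I+B under Ad-IκBαΔN. PER1 lies at chr17:8154420-8154514 and SCNN1A at chr12:6376278-6376372, both hg38, plus strand.
PER1: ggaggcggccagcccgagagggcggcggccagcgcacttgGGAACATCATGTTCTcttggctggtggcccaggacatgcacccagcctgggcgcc
SCNN1A: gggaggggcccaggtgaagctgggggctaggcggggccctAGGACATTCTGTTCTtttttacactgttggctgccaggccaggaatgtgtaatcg
The next 3 hold a κB motif (capitals) and come from regions where GR with I+B was 3.97 (CCL2) and 3.21 (IRAK2) log2 units higher under Ad-GFP, or 1.41 higher under Ad-IκBαΔN (IL1B). They lie at chr17:34252635-34252724, chr3:10169285-10169374 and chr2:112814481-112814570, hg38, plus strand.
CCL2: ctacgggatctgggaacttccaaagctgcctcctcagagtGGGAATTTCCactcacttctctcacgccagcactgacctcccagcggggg
IRAK2: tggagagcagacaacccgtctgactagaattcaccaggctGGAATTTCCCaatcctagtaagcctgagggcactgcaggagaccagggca
IL1B: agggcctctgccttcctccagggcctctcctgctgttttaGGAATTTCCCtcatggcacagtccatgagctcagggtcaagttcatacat
The last 2 are the central 100 bases of the regions with the most negative differences, where the closest match to the GR element anywhere in the 400 bp had 3 mismatches (LLGL2, chr17:75549451-75549550) or 4 (UPK1B, chr3:119195371-119195470), hg38, plus strand.
LLGL2: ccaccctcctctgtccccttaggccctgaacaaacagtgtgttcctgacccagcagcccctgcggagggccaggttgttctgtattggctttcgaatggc
UPK1B: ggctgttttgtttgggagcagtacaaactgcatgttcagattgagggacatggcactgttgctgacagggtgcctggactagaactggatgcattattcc

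With NF-κB blocked, adding IL1B to budesonide left the ranking of GR regions nearly as it was. Across 10740 regions the log2 values of I+B and Bud had a Pearson correlation of 0.90 under Ad-IκBαΔN and 0.07 under Ad-GFP. The regions are the same in both and the groups share no library, and the correlation describes these values only. The sources used here do not give how the authors chose the 10740 regions. Taking in regions of low Bud signal for their high I+B signal under Ad-GFP would lower the Ad-GFP correlation. Whether that was so was not tested. The median signal was 23.6 with I+B, 21.6 with Bud and 7.79 untreated under Ad-IκBαΔN, where signal is the coverage per base implied by the deposited value. Under Ad-GFP these medians were 45.7, 21.7 and 7.58. Differences under Ad-IκBαΔN ranged over regions from -2.13 to 2.27 log2 units, with an SD across regions of 0.55 against 1.76 under Ad-GFP.

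Small positive differences were more frequent than negative ones. The median was 0.26 log2 units, the middle 50% of regions lay between -0.12 and 0.66, and 7255 regions (67.6%) were above 0. A difference of at least 2-fold in signal plus 1 was present at 1036 regions with I+B higher (9.65%) and at 101 with I+B lower (0.94%). Under Ad-GFP the same threshold gave 5252 higher (48.9%) and 652 lower (6.07%). The position of 0 depends on how the groups were scaled. The deposited values of I+B are whole multiples of a step 1.5 times that of Bud, and with these steps divided out the median was -0.29, with 94 regions higher and 1078 lower. Under Ad-GFP the step of I+B was 3 times that of Bud, and removing these steps gave a median of -0.61 in place of 0.92, with 3253 regions higher and 4695 lower. For that reason the order of regions within the comparison is described below more than the distance of any region from 0. Ranges in parentheses run over the deposited scale and 5 alternatives (4 rescalings and a pseudocount of 5), together called scalings here. They are given for the Ad-IκBαΔN difference of a single named region wherever its sign depends on them. Medians of quintiles, motif groups, distance groups and all linked regions are on the deposited scale. Like the median of all regions, a small positive one can turn negative with the steps divided out.

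**Figure D1:**
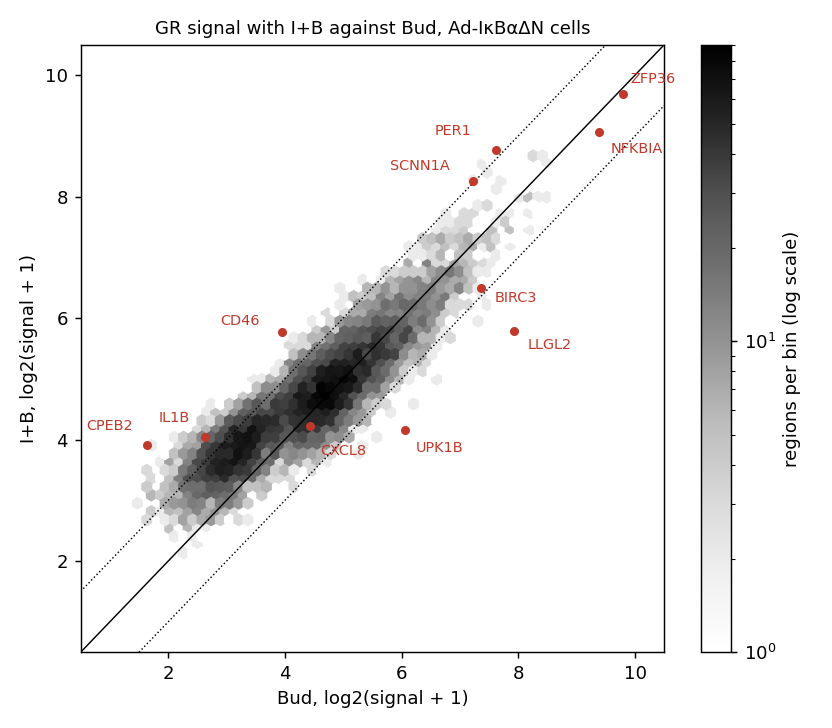
GR signal as log2(signal + 1) with I+B (vertical axis) against Bud (horizontal axis) at 10740 regions in Ad-IκBαΔN cells; grey shade is the number of regions per bin, the solid line marks equal values, the dotted lines mark 2-fold and red points are named regions. The cloud follows the line (correlation 0.90), lies above it at low signal and has LLGL2 and UPK1B below it.

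The difference followed the strength with which budesonide alone recruited GR. Regions were divided into quintiles by their Bud signal in Ad-GFP cells, libraries that do not enter the difference. From the lowest quintile to the highest, 2148 regions each, the median difference under Ad-IκBαΔN was 0.76, 0.52, 0.16, -0.02 and -0.14 log2 units. The count of regions at least 2-fold higher was 630, 255, 81, 38 and 32 in the same order, and of those at least 2-fold lower 0, 0, 6, 27 and 68. In the lowest quintile the median signal was 11.1 with I+B, 6.31 with Bud and 7.53 in untreated cells. On the deposited scale, the only one used for untreated cells, the Bud value there was thus below the untreated one. In the highest quintile it was 59.2 with I+B, 62.8 with Bud and 8.05 in untreated cells. The lowest quintile exceeded the highest by 0.90 log2 units, a contrast that lay between 0.29 (quantile normalization) and 1.03 over the alternative scalings, pseudocount and filter and was chosen after its values were seen. Across all regions the difference had a correlation of -0.58 with the Ad-GFP Bud signal.

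**Figure D2:**
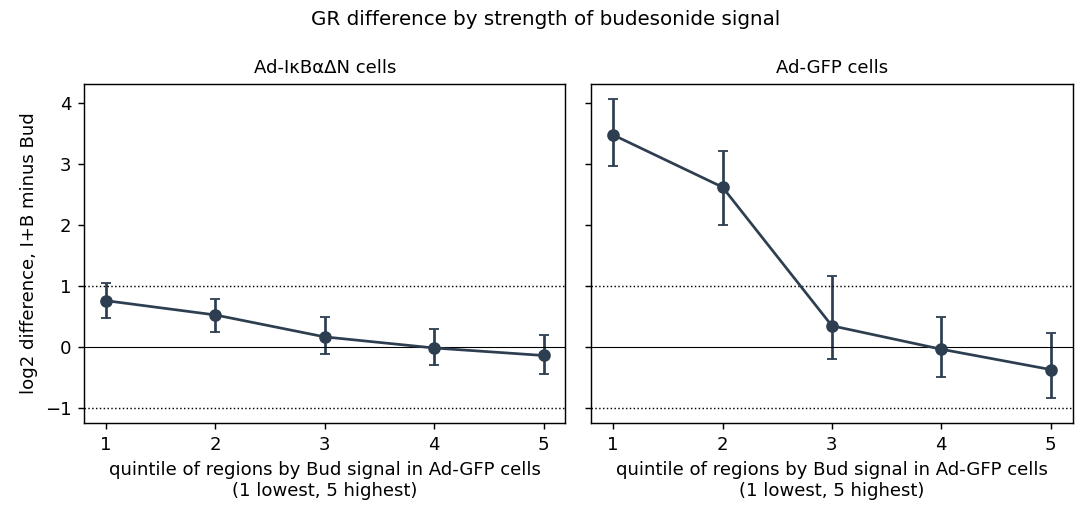
Log2 difference, I+B minus Bud, by quintile of Ad-GFP Bud signal (1 lowest, 5 highest; 2148 regions each) in Ad-IκBαΔN cells (left) and Ad-GFP cells (right); points are medians, bars the quartiles of regions, and dotted lines 2-fold. Medians run from 0.76 to -0.14 on the left and from 3.48 to -0.37 on the right, where the Bud signal that defines the quintiles also enters the difference.

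Within a quintile, how much GR the same region held with I+B under Ad-GFP was nearly unrelated to its difference under Ad-IκBαΔN. In the lowest quintile, regions were divided into tertiles by Ad-GFP I+B signal. Their median differences under Ad-IκBαΔN were 0.73, 0.76 and 0.79 from the low to the high tertile, while under Ad-GFP they were 2.76, 3.44 and 4.27. In the highest quintile the medians were -0.09, -0.13 and -0.16 under Ad-IκBαΔN and -0.90, -0.21 and 0.44 under Ad-GFP. The correlation of the Ad-IκBαΔN difference with Ad-GFP I+B signal inside the quintiles lay between -0.04 and 0.08. Over all regions the differences in the 2 viruses had a correlation of 0.53 (Spearman 0.52), and both were highest where Bud signal was low. In the lowest quintile 2145 of 2148 regions were at least 2-fold higher under Ad-GFP, so low Bud signal and a high Ad-GFP difference came together in this set.

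The authors' classes of regions showed the same dependence. The 4345 regions labelled increasing had a median difference of 0.53 under Ad-IκBαΔN, against 0.15 in the 3411 labelled unchanged and -0.03 in the 2984 labelled decreasing. Over the alternatives these medians ran from -0.007 to 0.53, from -0.41 to 0.15 and from -0.59 to -0.03. At least 2-fold higher were 700, 222 and 114 regions of the 3 classes. Under Ad-GFP the class medians were 2.95, 0.35 and -0.37. At a matched Bud signal the classes came close together under Ad-IκBαΔN. In the lowest quintile the median was 0.75 in increasing, 0.81 in unchanged and 0.83 in decreasing regions, and in the highest quintile it was 0.01, -0.09 and -0.23. The sources used here do not give the authors' definition of the classes.

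Regions with a close match to the GR element held more GR with I+B than with Bud under Ad-IκBαΔN, also where budesonide alone gave strong binding. In the highest quintile, the 108 regions with at most 1 mismatch had a median signal of 82.2 with I+B and 62.8 with Bud. Their median difference was 0.37 log2 units, 80 of 108 were above 0, 7 were at least 2-fold higher and 0 at least 2-fold lower. The 911 regions with 4 or more mismatches had 53.9 with I+B and 59.8 with Bud, a median of -0.22, 290 above 0, 4 at least 2-fold higher and 31 lower. Regions with 2 mismatches (352) had a median of -0.01 and those with 3 (777) one of -0.16, so the median was lower at each step away from the element. The gap of 0.59 between close match and none was 0.57 to 0.60 over the scalings. With at most 2 mismatches against all other regions of the quintile the gap was 0.26, and with at most 1 it was 0.53. The median of the close matches itself was -0.21 with the steps divided out.

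The order was the opposite one in cells with the control virus. In the highest quintile under Ad-GFP, close matches had a median difference of -0.63 and regions with 4 or more mismatches one of -0.17, a gap of -0.46 that lay between -0.50 and -0.42 over the same alternatives. In the lower quintiles under Ad-IκBαΔN, close matches had medians of 0.83 (10 regions), 0.67 (43), 0.44 (119) and 0.40 (88) from the lowest to the fourth. The corresponding medians of all regions were 0.76, 0.52, 0.16 and -0.02. The median of close matches thus exceeded that of all regions by more in the upper quintiles than in the lowest.

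**Figure D3:**
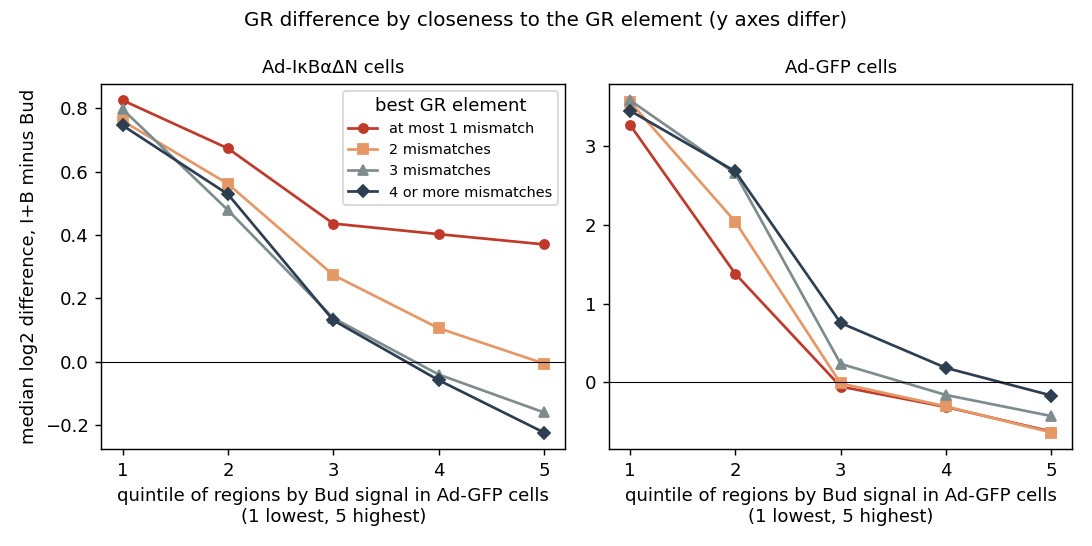
Median log2 difference, I+B minus Bud, by quintile of Ad-GFP Bud signal (1 lowest, 5 highest) for regions whose best GR element has at most 1, 2, 3, or 4 or more mismatches, in Ad-IκBαΔN cells (left) and Ad-GFP cells (right), with different vertical axes. In the highest quintile the medians run from 0.37 (at most 1) to -0.22 (4 or more) on the left and from -0.63 to -0.17 on the right.

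The close element was more frequent among strongly bound regions that were higher with I+B, though most of these lacked it. In the highest 2 quintiles, 70 regions were at least 2-fold higher with I+B, and 14 of them (20.0%) had the element with at most 1 mismatch. None of the 95 regions at least 2-fold lower had it, and 182 of the other 4131 (4.41%) did. An AP-1 motif (TGAGTCA or its reverse complement TGACTCA, either strand) was in 4.29% of the higher, 17.9% of the lower and 22.9% of the other regions, against 22.8% of all regions. Forkhead (TGTTTAC, in 13.1% of all regions) and TEAD (ACATTCC, in 10.9%) motifs, both strands and both chosen after values were seen, were in 8.57% and 15.7% of the higher regions and in 12.6% and 14.7% of the lower ones.

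The κB motif went with a higher difference over all regions, but hardly among regions of like budesonide binding. Over all regions, the 2290 with the motif had a median difference of 0.60 and the rest 0.17 under Ad-IκBαΔN. The motif was in 51.6% of regions of the lowest quintile and 4.89% of the highest. Inside the lowest quintile the medians with and without it were 0.76 and 0.76, inside the next 0.56 and 0.50, inside the middle quintile 0.18 and 0.16, inside the next 0.07 and -0.03, and inside the highest -0.13 and -0.14. Under Ad-GFP the highest quintile had medians of 0.71 with the motif and -0.40 without. Whether the difference between viruses exceeds replicate spread was not tested, since no spread is available.

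Genes were linked to a region when theirs was the nearest protein-coding start site within 100 kb, which placed 8550 regions. Among linked regions 831 (9.72%) were at least 2-fold higher with I+B and 83 (0.971%) at least 2-fold lower under Ad-IκBαΔN, with a median of 0.27. The lead region of a gene is its most strongly bound one. Regions within 1 kb of a start site (713) had a median difference of 0.43, and those over 100 kb away (2190) one of 0.23.

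**Figure D4:**
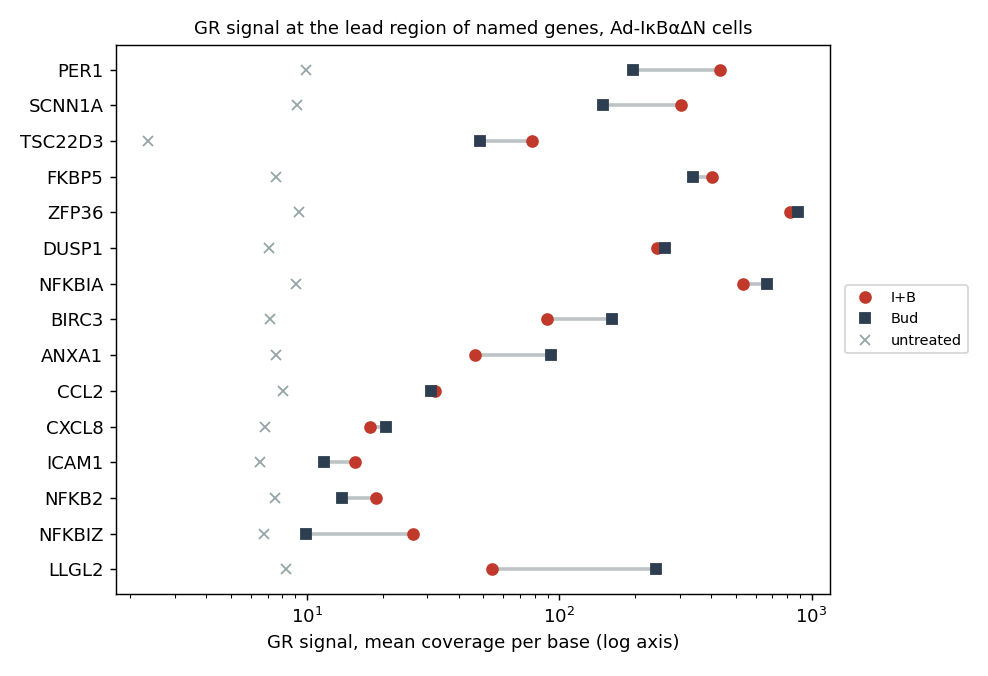
GR signal on a log axis at the lead region of 15 named genes in Ad-IκBαΔN cells with I+B (red circles), Bud (dark squares) and no treatment (grey crosses). PER1 and SCNN1A lie further right with I+B (435 and 304) than with Bud (196 and 149), LLGL2 further left (54.4 against 241), and CCL2 and CXCL8 have nearly equal values.

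At the lead regions of CXCL8, CCL2, ICAM1 and EFNA1, GR was many-fold higher with I+B than with Bud under Ad-GFP. Under Ad-IκBαΔN it was close to the Bud value there on the deposited scale. CXCL8 encodes interleukin-8, a neutrophil chemoattractant. At its lead region, 0.064 kb before the start, the signal was 17.7 with I+B and 20.5 with Bud, a difference of -0.20 (-0.75 to -0.17 over scalings), against 387 and 23.7 under Ad-GFP, a difference of 3.97 (2.40 to 3.97). CCL2, a monocyte chemoattractant, had 32.3 with I+B and 31.1 with Bud at the region whose κB motif is printed above, a difference of 0.05 (-0.51 to 0.05 over scalings), and 387 and 23.8 under Ad-GFP. ICAM1, the adhesion molecule that binds leukocytes, had 15.6 and 11.7, a difference of 0.38 (-0.16 to 0.38), and 249 and 6.41 under Ad-GFP. EFNA1, an ephrin ligand, had 19.4 and 17.7, a difference of 0.13 (-0.42 to 0.13), and 106 and 12.3 under Ad-GFP. On the deposited scale all 4 lead regions were within 0.38 log2 units of their Bud value under Ad-IκBαΔN. Under Ad-GFP they were between 3.00 and 5.08 above it, where the lowest value over scalings was 1.44, at EFNA1. A weaker CCL2 region 16.3 kb before the start, named after its values were seen, had 18.8 with I+B and 7.17 with Bud under Ad-IκBαΔN. Its difference was 1.28 (0.73 to 1.28), and a weaker CXCL8 region described below was also more than 2-fold higher. On the deposited scale no region linked to these 4 genes was at least 2-fold lower. Lead regions of other cytokine genes, named after their values were seen, lay on both sides of Bud under Ad-IκBαΔN. The differences at CXCL5, IL6, IL1A, CSF3 and TNFSF15 were -0.23, -0.20, -0.20, -0.16 and -0.03. On the deposited scale 35 of the 44 lead regions of the inflammatory list were above 0. The difference was 0.95 at CXCL1 and 0.87 at CXCL10, both chemokines, against 4.74 and 4.49 under Ad-GFP. It was 0.74 at TNF, the tumour necrosis factor gene, against 3.87 under Ad-GFP.

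The inflammatory list was higher than the linked regions as a whole, and most of its regions were weakly bound with budesonide. Of 54 genes 44 had a linked region, 112 regions in all, with a median difference of 0.59 (0.04 with the steps divided out). At least 2-fold higher were 20 of 112 (17.9%) and lower 1, against 9.72% and 0.971% of all linked regions. The lower one, linked to the chemokine CXCL2, had 18.9 with I+B and 39.1 with Bud, a difference of -1.01. No region of this list was at least 2-fold higher under every scaling. In the lowest quintile of Bud signal its 46 regions had a median of 0.86, against 0.76 for all regions of that quintile. In the next quintile 39 regions had 0.62, against 0.52. The middle quintile held 18 regions with a median of 0.06, against 0.16, and the highest quintile 5 with a median of -0.44, against -0.14.

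The highest lead regions of the inflammatory list were those of IL1B itself, SOD2 and TNFAIP6, and the lowest those of LIF, CCL20 and PTGS2. The IL1B region, 21.9 kb from the start, had 15.5 with I+B and 5.22 with Bud, a difference of 1.41 (0.80 to 1.41). SOD2, the mitochondrial superoxide dismutase, had 14.0 and 5.24, a difference of 1.27. TNFAIP6, a secreted hyaluronan-binding protein, had 10.9 and 4.04, a difference of 1.23. All 3 Bud values were below the untreated values of 9.28, 5.73 and 6.36. LIF, a cytokine of the interleukin-6 family, had 28.2 and 45.1, a difference of -0.66. PTGS2, the inducible cyclooxygenase, had 53.4 and 68.4, a difference of -0.35, against 2.85 under Ad-GFP. CCL20, a chemokine of mucosal surfaces, had 100.3 and 136 at a region 4.58 kb past its start, a difference of -0.44. These 3 lead regions belong to the highest quintile of Bud signal, and their differences were negative under every scaling. They do not stand for all regions of their genes. Weaker regions, named after their values were seen, had 19.4 and 6.28 at LIF, 17.5 and 7.34 at CCL20, and 12.4 and 5.17 at PTGS2. Their differences were 1.48, 1.15 and 1.11, positive under every scaling. On the deposited scale no region of these genes was at least 2-fold lower.

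Genes placed in a list of NF-κB feedback were divided in the same way. NFKBIA encodes IκBα, the protein whose truncated form the virus delivers. Its promoter region, which overlaps the transcribed 5′ end, had 535 with I+B and 668 with Bud, a difference of -0.32, and 614 and 871 under Ad-GFP, a difference of -0.50. BIRC3, an inhibitor of apoptosis, had 89.4 and 162 at a region 11.0 kb before its start, a difference of -0.85 (-1.43 to -0.83), against 0.02 under Ad-GFP (-1.56 to 0.02). TNFAIP3, the deubiquitinase A20, had 55.3 and 36.0, a difference of 0.61 (0.03 to 0.61). NFKB2 belongs to the inflammatory list and encodes the p100 precursor of an NF-κB subunit. It had 18.9 and 13.8, a difference of 0.42 (-0.13 to 0.42), against 582 and 10.7 under Ad-GFP. NFKBIZ, a nuclear IκB protein, had 26.3 and 9.96, a difference of 1.32 (0.76 to 1.32), the highest lead region of its list. TNIP2, a partner of A20, and NFKBIB, the inhibitor IκBβ, had differences of 1.12 and 1.07, while BIRC2, close to BIRC3 in sequence and function, had -0.23. The feedback list held 62 regions of 18 of 20 genes, with a median of 0.37 (-0.18 with the steps divided out). At least 2-fold higher were 4 (6.45%) and lower 0, against 9.72% and 0.971% of all linked regions, and with the steps divided out 4 were lower.

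Genes that carry the IL1B signal had few linked regions. Of 22 genes 9 had one, 24 regions in all, with a median of 0.52 (-0.03 with the steps divided out). At least 2-fold higher were 3 (12.5%) and lower 0, a share of higher regions near the 9.72% of all linked regions. The receptor IL1R1 had 124 with I+B and 141 with Bud, a difference of -0.18, and the decoy receptor IL1R2 had 17.0 and 18.0, a difference of -0.07. The ubiquitin ligase PELI2 had 16.8 and 17.2, a difference of -0.04. The receptor-associated kinase IRAK2, whose κB motif is printed above, had 43.3 and 25.7, a difference of 0.73, against 251 and 26.2 under Ad-GFP. The kinase MAP3K8 had 42.1 and 22.5, a difference of 0.88, and the adaptor TAB2 had 11.7 and 4.75, a difference of 1.15.

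Classical glucocorticoid targets ranged from more than 2-fold higher to nearly 2-fold lower. PER1, a circadian clock gene, had 435 with I+B and 196 with Bud at a region 1.89 kb past its start, a difference of 1.15 (0.56 to 1.15). Under Ad-GFP the same region had 110 and 224, a difference of -1.02. SCNN1A, the α subunit of the epithelial sodium channel, had 304 and 149, a difference of 1.02 (0.44 to 1.02), and 95.5 and 172 under Ad-GFP, a difference of -0.85. These are the regions whose elements are printed above, and in both the direction differed between the viruses under every scaling. TSC22D3, which encodes the anti-inflammatory protein GILZ, had 78.4 and 48.7, a difference of 0.67 (0.10 to 0.67), and 20.9 and 52.3 under Ad-GFP. FKBP5, a co-chaperone that restrains GR, had 404 and 340 at its lead region, a difference of 0.25 (-0.33 to 0.25), and 240 and 455 under Ad-GFP.

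On the deposited scale, strongly bound sites near inflammation regulators ZFP36 and DUSP1 were close to their Bud level, and that near ANXA1 was not. ZFP36, which destabilises cytokine mRNAs, had 825 with I+B and 883 with Bud, a difference of -0.10 (-0.68 to -0.10 over scalings). Under Ad-GFP it had 451 and 997, a difference of -1.14. DUSP1, the phosphatase that shuts down mitogen-activated protein kinases, had 244 and 263, a difference of -0.11 (-0.69 to -0.11). At the low end, ANXA1, an anti-inflammatory annexin, had 46.3 and 92.5 at its lead region. The difference was -0.98 (-1.55 to -0.93), against -0.08 (-1.63 to -0.07) under Ad-GFP, so whether the viruses differ there depends on the scale. CDC42EP3, an effector of the small GTPase CDC42, had 85.6 and 146, a difference of -0.76. The metallothionein gene MT1X had 35.5 and 47.3, a difference of -0.40. CRISPLD2, a secreted glucocorticoid-induced protein, had 12.0 and 4.56 at a weakly bound intronic region, a difference of 1.22.

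As a list, glucocorticoid-induced genes held 165 regions of 45 of 50 genes, with a median of 0.20 (-0.34 with the steps divided out). At least 2-fold higher were 11 regions (6.67%) and lower 1 (0.606%), shares below the 9.72% and 0.971% of linked regions. The lower one was a second region of ANXA1, with 17.0 with I+B and 37.6 with Bud, a difference of -1.10. In the highest quintile of Bud signal, which held 75 of the 165, the median was 0.13, against -0.14 for all regions of that quintile. In the lowest quintile 15 regions had 0.61, against 0.76.

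**Figure D5:**
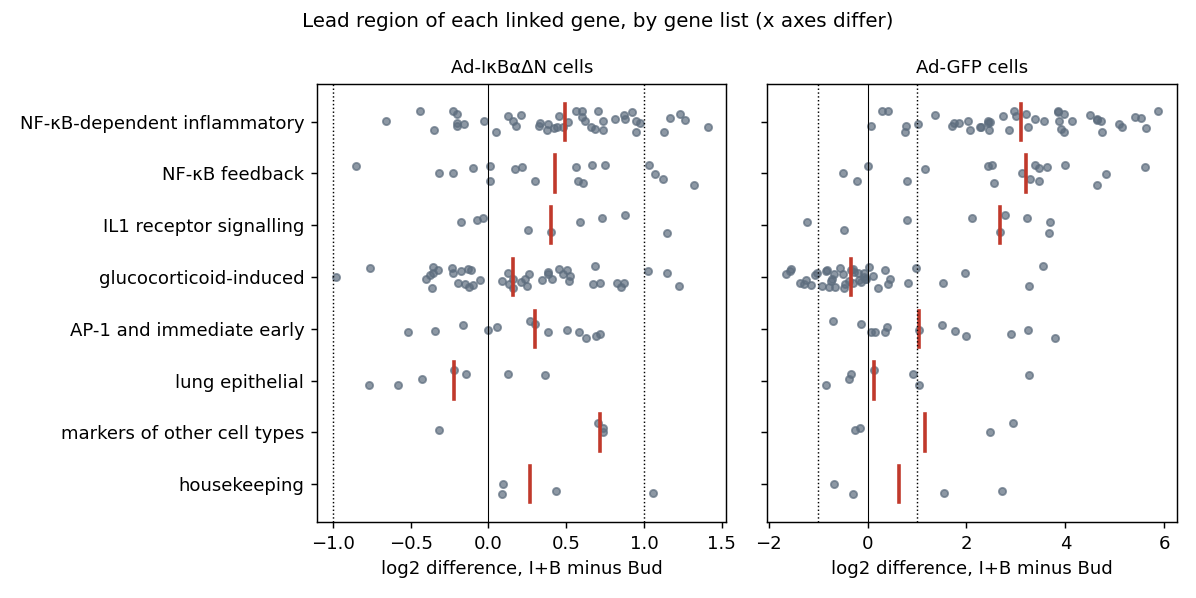
Log2 difference, I+B minus Bud, at the lead region of each linked gene (grey points, spread vertically for visibility) for 8 gene lists, in Ad-IκBαΔN cells (left) and Ad-GFP cells (right), with different horizontal axes; red bars are medians and dotted lines 2-fold. Medians of inflammatory lead regions are 0.49 on the left and 3.10 on the right, and those of glucocorticoid-induced genes 0.16 and -0.33.

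AP-1 and other immediate early genes, which respond to mitogen-activated protein kinases, had 33 regions of 13 of 23 genes, with a median of 0.45 (-0.09 with the steps divided out). At least 2-fold higher were 2 (6.06%) and lower 0, against 9.72% and 0.971% of all linked regions. MAFK, a small MAF factor, had 109 with I+B and 66.8 with Bud, a difference of 0.69. EGR3, a zinc finger factor, had 12.8 and 7.38, a difference of 0.72, and JUNB, an AP-1 subunit, 15.5 and 9.73, a difference of 0.62. The Krüppel-like factors KLF4 and KLF2 had differences of -0.51 and -0.35, and the stress-response gene IER3 had -0.16.

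Lung epithelial genes were the list with a negative median, -0.15 over 20 regions of 7 of 16 genes, negative under every alternative (-0.70 to -0.13). None of the 20 was at least 2-fold higher or lower, against 9.72% and 0.971% of all linked regions, and with the steps divided out 5 were lower. Its lead regions near transcription factors of lung and foregut were GATA6, with 17.1 with I+B and 29.8 with Bud, a difference of -0.77, and NKX2-1, with 23.5 and 35.7, a difference of -0.58. KRT8, a keratin of simple epithelia, had 171 and 230, a difference of -0.43. FOXA1 had a difference of 0.13 (-0.43 to 0.13) and the tight junction gene CLDN1 one of 0.37 (-0.18 to 0.37). Of 20 regions 12 were in the highest 2 quintiles of Bud signal, where all regions had medians of -0.02 and -0.14.

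Markers of other cell types had 5 regions of 4 of 12 genes, with differences at lead regions of 0.74 at PTPRC, 0.73 at PECAM1, 0.70 at CDH5 and -0.32 at COL1A1. Housekeeping genes had 8 regions of 4 of 14 genes, with a median of 0.27 (-0.30 with the steps divided out). ACTB had 32.4 with I+B and 30.5 with Bud, a difference of 0.08 (-0.48 to 0.08). EEF1A1 had a difference of 0.44 (-0.12 to 0.44) and YWHAZ one of 1.06. The 4 housekeeping lead regions thus ranged from 0.08 to 1.06, while the medians of the 8 lists lay between -0.15 and 0.70.

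Outside the lists, regions were taken for at least median strength and the most negative differences. Their high Bud signal under Ad-IκBαΔN is largely set by that choice and is given as a description only. LLGL2, a cell polarity gene, had 54.4 with I+B and 241 with Bud at the intronic region printed above, a difference of -2.13 (-2.70 to -2.05), and 89.8 and 283 under Ad-GFP, a difference of -1.64. UPK1B, a uroplakin of urothelial membranes, had 16.8 and 65.8, a difference of -1.91. FBRSL1 had 52.2 and 188, a difference of -1.83 (-2.40 to -1.76), against -0.40 (-1.96 to -0.39) under Ad-GFP. TPD52L1 had 18.7 and 67.4, a difference of -1.79, and -2.90 under Ad-GFP.

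The region nearest SLC25A17, a peroxisomal carrier, had a difference of -1.71 and -2.10 under Ad-GFP. A region in an intron of VWA8, a region 230 kb from PAPPA, a secreted metalloproteinase, and an intronic region of CLPTM1L had differences of -1.76, -1.58 and -1.58 under Ad-IκBαΔN. Under Ad-GFP these 3 regions differed by 0.00, 0.01 and 0.00 on the deposited scale, and by -1.53, -1.55 and -1.53 with the steps divided out, so whether the viruses differ there depends on the scale. None of the 8 had a GR element with fewer than 3 mismatches. All 8 lay in the highest quintile of Bud signal, where 1688 regions lacked such an element and 460 had it. Its absence thus does not set these 8 regions apart.

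The 8 highest regions of at least median strength had differences between 1.49 and 1.82. CD46, a regulator of complement, had 53.5 with I+B and 14.4 with Bud at a region 53.8 kb past its start, a difference of 1.82 (1.25 to 1.82), and 59.6 and 14.7 under Ad-GFP. MED9, a Mediator subunit, had 74.2 and 23.3, a difference of 1.63. TLE1, a corepressor, had 99.1 and 32.1, a difference of 1.59, and 0.18 under Ad-GFP (-1.33 to 0.18). A region 6.21 kb from the start of TMEM60 had 86.5 and 28.2, a difference of 1.58, and 19.8 and 34.2 under Ad-GFP, a difference of -0.76. SH3TC2 had a difference of 1.49.

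The largest differences of all were at weakly bound regions, named after their values were seen. The regions nearest CPEB2, SALL1, ATOH7 and OTOP1 had 14.1, 16.5, 20.5 and 13.7 with I+B and 2.12, 2.65, 3.80 and 2.40 with Bud, differences of 2.27, 2.26, 2.16 and 2.11. Untreated signals there were 8.69, 10.2, 8.68 and 5.52, so the Bud values were the lowest of the 3 treatments. Picking the largest differences favours low Bud values. Each of the 4 regions has a κB motif. They lie in the lowest 2 quintiles, where 51.6% and 37.3% of regions have it. The median difference with and without the motif was 0.76 and 0.76 in the lowest of these, and 0.56 and 0.50 in the next.

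Differences of at least 2-fold under every scaling were present at 59 regions with I+B higher and 50 with I+B lower. Both sets were chosen by I+B minus Bud, so low Bud signal in the first and high in the second are partly set by the choice. The pseudocount of 5 also makes a 2-fold lower call unlikely at weakly bound regions. The 59 higher regions had a median signal of 18.1 with I+B, 4.63 with Bud and 7.62 untreated. Of these, 56 lay in the lowest 2 quintiles of Bud signal and 54 were also at least 2-fold higher under Ad-GFP on the deposited scale (43 to 54 over scalings). In those 2 quintiles 2145 and 2018 of 2148 regions were at least 2-fold higher under Ad-GFP, so the 54 does not set these regions apart. The 50 lower regions had a median of 31.5 with I+B, 80.7 with Bud and 8.10 untreated, and all 50 lay in the highest 2 quintiles. Of these 16 were at least 2-fold lower under Ad-GFP on the deposited scale, and 15 to 49 over scalings. In the fourth and highest quintiles 162 and 407 of 2148 regions were so on the deposited scale. Regions that differed in opposite directions between the viruses under every scaling numbered 421 with I+B higher under Ad-IκBαΔN and lower under Ad-GFP, and 481 the other way round, of 10740.

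Neighbouring regions resembled each other less than under the control virus. For consecutive regions less than 3 kb apart (1016 pairs) the correlation of their differences was 0.25 under Ad-IκBαΔN and 0.49 under Ad-GFP. At 3 to 30 kb (2899 pairs) it was 0.17 and 0.34, and beyond 30 kb (6801 pairs) 0.04 and 0.07. Such pairs share their libraries and the local chromatin, and the values are descriptions. Beside the CXCL8 lead region, a weaker one 5.78 kb before the start had 15.1 with I+B and 5.55 with Bud, a difference of 1.30, and at FKBP5 a region 0.803 kb past the start had 53.3 and 24.5, a difference of 1.09. Both were named after their values were seen.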

How the data were processed

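The authors deposited 1 table with, for each of 10740 regions and 6 GR groups, a log2 value, which the values show to be log2(signal + 1), with signal a coverage per base over 400 bp. Per the submitters' processing notes, Bowtie2 2.4.4, MACS2 2.2.7.1, DiffBind 3.2, SAMtools and the build hg38 were used, with no role stated. The sources used here do not give the scale of each group, and library depth is unknown. The table writes the virus as Ad-IkBa, taken here as Ad-IκBαΔN of the labels. Values were whole multiples of a step (within 0.0001) in the I+B and Bud groups of both viruses. The untreated groups were not checked for a step, so comparisons of Bud with untreated values rest on the deposited scale alone. The values of libraries were combined, so the planned replicate, block and limma alternatives could not be run. The differences, quintiles, links (GENCODE release 44) and motif searches were computed with Python 3.11.15, pandas 2.3.3 and numpy 2.4.6, and the calculation was tested on simulated data. Named genes are, from each of 8 lists (211 genes), the 3 highest and 3 lowest lead regions, 8 regions each way outside the lists with at least median signal, and 13 fixed genes. Regions and lists were chosen with earlier results of these data known. Alternatives were 4 other scalings, a pseudocount of 5, a filter on the lowest 25%, a 1.5-fold threshold, a 20 kb link and another mismatch limit. Libraries of RELA and input were not used. Some named regions are not reported here.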

Additional observations from a re-analysis of the deposited data

Results flagged for a closer look

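At 11 named regions the difference between I+B and Bud had opposite signs under the 2 viruses in every scaling. All are lead regions except that of TMEM60, which was named outside the lists. With 1 value per group, the difference between the viruses was not tested. Under Ad-IκBαΔN and then Ad-GFP, the values with I+B higher in the first were 1.58 and -0.76 at TMEM60, 1.15 and -1.02 at PER1, 1.02 and -0.85 at SCNN1A, 0.73 and -0.16 at PECAM1 and 0.67 and -1.28 at TSC22D3. Those with I+B lower in the first were -0.66 and 2.02 at LIF, -0.35 and 2.85 at PTGS2, -0.35 and 1.78 at KLF2, -0.23 and 3.13 at BIRC2, -0.20 and 3.97 at CXCL8, and -0.038 and 2.11 at PELI2.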

How the results depend on the processing

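The scale of the groups decided how many regions lay beyond 2-fold. Against 1036 regions higher, 101 lower and a median of 0.26 log2 units, dividing out the steps gave 94, 1078 and -0.29. Re-centring both groups to a common median gave 624, 177 and 0.14, quantile normalization 204, 250 and 0.0014, and centring on the authors' unchanged class 547, 200 and 0.12. A pseudocount of 5 gave 276, 50 and 0.22. Without the 25% of regions of lowest signal 407 were higher and 100 lower, with a median of 0.12, and at 1.5-fold 3138 were higher and 619 lower. Of those values 19 moved and 1, the 100 lower, did not. For single regions, classes and lists 490 values moved and 133 did not, where moving is a change of at least 0.005 log2 units or, for a count, of over 1.5 times. The cause was not tested. The gap between regions with and without a GR element in the highest quintile, chosen after seeing the data, lay between 0.57 and 0.60, but was 0.26 for at most 2 mismatches against all others. No paired analysis was possible because the table holds 1 value per group and none per library. For the same reason no library could be left out, depth is unknown, and regions with a Bud value below the untreated one cannot be told from background.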
